A study of Homo sapiens with 6 samples.

Results

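Expression of 41 genes of homologous recombination, crosslink repair and the DNA damage checkpoint was measured by RNA sequencing in the bladder carcinoma cell lines T24 and UM-UC-3. The 41 genes were taken by name from pathway knowledge, with earlier results of these data known. All 41 were found among the 19945 genes listed in the files of both lines. One of them, MRE11A, carries the newer name MRE11 in the files and was matched through its RefSeq synonym. Each line received siRNA-1 or siRNA-2 at 0.04 OD, or a negative control, for 48 h, and every combination of line and treatment is a single library, 6 in all. The silenced gene is HSF1 by the series title and by the headers of the UM-UC-3 files, whereas the sample labels give no target and do not say if the negative control contained an siRNA. HSF1 encodes the main activator of the heat shock response. No label ties the libraries to separate cultures, so the p-values reflect how much these libraries differ among themselves, which may in part be technical. For the effect within a line, the spread is that between siRNA-1 and siRNA-2, pooled over the lines. In the fit over both lines it also holds any difference of the siRNA effect between the lines.

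The libraries held 23709089 to 28504833 reads assigned to genes, so that 1 read was worth 0.0351 to 0.0422 CPM (the read count of a gene scaled to the depth of its library). HSF1 had 20.3 CPM with siRNA-1 and 22.7 CPM with siRNA-2 in T24, against 106 CPM in the T24 control. In UM-UC-3 HSF1 had 50.3 CPM with siRNA-1 and 36.5 CPM with siRNA-2, against 138 CPM in the UM-UC-3 control. The siRNA libraries thus held between 19.1% and 36.6% of their control. Of 14 epithelial and urothelial markers, 5 reached 1 CPM in a library. They were the keratins KRT18 at 186 to 335 CPM, KRT8 at 24.2 to 795 CPM and KRT7 at 0.702 to 7.63 CPM. The others were PPARG at 1.36 to 16.1 CPM and GATA3 at 0 to 1.16 CPM. The urothelial markers KRT20, UPK1A, UPK1B and UPK2 and the epithelial markers EPCAM and CDH1 stayed at or below 0.403 CPM in every library. The 5 blood markers summed to at most 0.675 CPM. The 3 endothelial markers summed to 0.523 to 4.40 CPM and the 4 fibroblast and muscle markers to 3.22 to 13.4 CPM.

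Homologous recombination repairs a broken chromosome by copying the sister chromatid. The ends are first cut back to single strands, BRCA1, PALB2 and BRCA2 then prepare these strands for pairing with the sister, and helicases and nucleases undo the joined molecules at the end. The Fanconi anemia pathway recognises DNA strands that are crosslinked to each other, attaches ubiquitin to the pair FANCD2 and FANCI, and hands the lesion to recombination. ATM and ATR are the kinases that sense such damage and halt the cell cycle through CHEK2 and CHEK1. Recombination needs a sister chromatid, so many of these genes are known to be expressed mainly in the S and G2 phases, where E2F factors drive their promoters.

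Promoters are shown for the 5 genes that were at least 1.5-fold lower than the control in all 4 siRNA libraries (RAD54L, RAD51AP1, FANCA, FANCG and UBE2T) and for FANCF, the single gene that was higher in all 4. The stretches run from 160 bases before the gene's start through the first 30 bases of the transcript, 5′ to 3′ on the strand of the gene, from RefSeq on GRCh38.p14. Capitals mark E2F motifs (TTCCCGC or TTGGCGC), the cell cycle homology region CHR (TTTGAA) and the CCAAT box, each on either strand. RAD54L lies at chr1:46247528-46247717 on the plus strand, where RefSeq gives 2 starts and the first is used. RAD51AP1 lies at chr12:4538730-4538919 on the plus strand. FANCA at chr16:89816618-89816807, FANCG at chr9:35079913-35080102, UBE2T at chr1:202341907-202342096 and FANCF at chr11:22625794-22625983 are on the minus strand.
RAD54L promoter: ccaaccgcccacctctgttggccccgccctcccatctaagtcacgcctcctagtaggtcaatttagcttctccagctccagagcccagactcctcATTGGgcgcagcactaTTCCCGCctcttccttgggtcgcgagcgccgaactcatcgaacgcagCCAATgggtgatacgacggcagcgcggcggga
RAD51AP1 promoter: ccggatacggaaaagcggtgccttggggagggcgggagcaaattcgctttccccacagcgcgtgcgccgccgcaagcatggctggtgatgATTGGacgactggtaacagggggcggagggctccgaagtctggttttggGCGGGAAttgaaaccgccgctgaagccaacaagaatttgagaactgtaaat
FANCA promoter: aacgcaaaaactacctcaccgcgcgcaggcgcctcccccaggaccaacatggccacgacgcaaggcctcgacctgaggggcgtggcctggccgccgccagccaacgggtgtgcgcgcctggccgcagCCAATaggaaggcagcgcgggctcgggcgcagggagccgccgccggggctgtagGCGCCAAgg
FANCG promoter: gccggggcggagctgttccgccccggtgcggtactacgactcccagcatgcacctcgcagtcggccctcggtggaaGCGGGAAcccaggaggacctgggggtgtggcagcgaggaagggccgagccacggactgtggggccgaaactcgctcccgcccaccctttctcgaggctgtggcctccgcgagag
UBE2T promoter: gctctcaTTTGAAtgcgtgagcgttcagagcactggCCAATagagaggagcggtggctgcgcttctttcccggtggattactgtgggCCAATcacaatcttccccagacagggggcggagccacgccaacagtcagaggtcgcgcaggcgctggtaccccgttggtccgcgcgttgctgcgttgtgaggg
FANCF promoter: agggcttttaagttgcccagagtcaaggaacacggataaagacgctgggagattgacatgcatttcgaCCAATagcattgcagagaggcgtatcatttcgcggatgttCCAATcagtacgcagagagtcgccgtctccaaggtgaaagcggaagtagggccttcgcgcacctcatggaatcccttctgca
RAD54L, RAD51AP1, FANCA and FANCG carried an E2F motif in these stretches, at positions -49, -21, 21 and -84 from the start. UBE2T and FANCF carried none and had 2 CCAAT boxes each, and UBE2T also had a CHR motif at position -153. Heat shock units are not marked in these stretches. A pair of them (GAANNTTC or TTCNNGAA) lay upstream of the printed stretch in FANCG, at position -177, and in FANCF, at position -244.

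The siRNA libraries held less RNA of most of these genes than the control of their line. In T24 both siRNA libraries were below the control for 32 of the 41 genes, against 30.1% of all 13265 genes tested, and in UM-UC-3 for 31 genes, against 30.4% of all genes. All 4 siRNA libraries were below their control for 27 genes, which is 65.9% of the 41 and compares with 12.2% of all genes. Both siRNA libraries of a line are set against the same single control, so their ratios are not independent. A deviation of that control would move both together. The 41 genes were also chosen with earlier results of these data known, so these counts are a description. Where a ratio was counted only if its 95% counting interval left out the control, a reading added after the values had been seen, 21 genes were lower in all 4 libraries, against 6.18% of all genes. FANCF alone was higher in all 4 libraries by either reading, against 18.8% and 8.65% of all genes. In T24 both siRNA libraries were above the control for FANCF and ATR, against 39.0% of all genes, and in UM-UC-3 for 7 of the 41, against 39.8%. In bulk samples, fewer cells of a kind, such as cells in S and G2 phase, and less RNA of a gene per cell cannot be told apart. The median log2 ratio to the control over the 41 genes came to -0.60 for siRNA-1 and -0.90 for siRNA-2 in T24, and to -0.18 for siRNA-1 and -0.36 for siRNA-2 in UM-UC-3. Over all genes the same medians lay between 0.03 and 0.11. These counts and medians rest on CPM without further scaling. With CPM rescaled by TMM, which corrects for library composition, 15.9% of all genes were lower in all 4 siRNA libraries and 14.3% higher. The median log2 fold change over both lines was then -0.62 for the 41 genes and -0.0091 for all genes. Counts of the 41 genes on the TMM scale are not given, so the counts above cannot be set beside these shares.

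**Figure D1:**
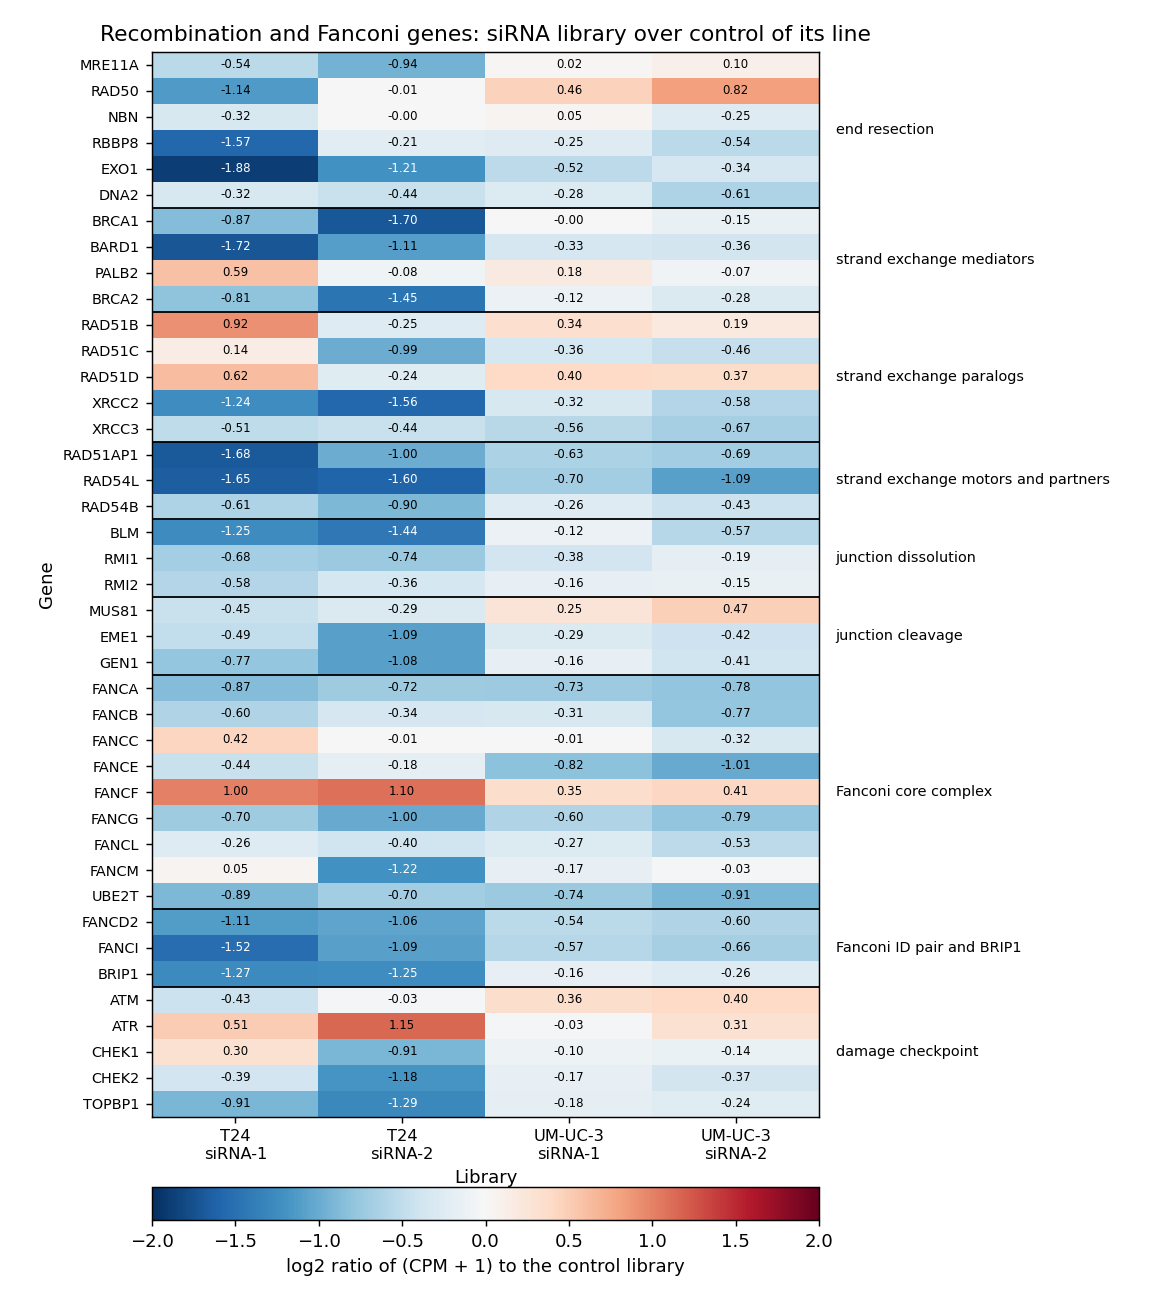
Log2 ratio of (CPM + 1) in each siRNA library (columns) to the control of its line for the 41 genes (rows), grouped by role; blue cells are below the control and red cells above it. The T24 columns hold the deepest blue, EXO1 with siRNA-1 at -1.88, FANCF is red across all 4 columns, and RAD50, MUS81 and ATM turn from blue or near white in T24 to red in UM-UC-3.

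Single genes did not pass the test that spans all genes. With limma-trend on log2(CPM + 1), adjusted by the Benjamini-Hochberg procedure over 13265 genes at a threshold of 0.05, none of the 41 genes and 0% of all genes were called over both lines. At an unadjusted p under 0.05, 16 of the 41 genes were lower, against 4.76% of all genes, and FANCF was higher, against 5.14% of all genes. The smallest adjusted p among the 41 was 0.424. edgeR's quasi-likelihood test also called none, and DESeq2 called 87 genes over both lines, of which RAD54L was the single one among the 41. The median log2 fold change over both lines was -0.55 for the 41 genes and 0.06 for all genes tested. Fold changes below are on the log2(CPM + 1) scale, siRNA over control, with a standard error from this fit of 6 libraries, and an adjusted p of this limma test where one is given.

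End resection is started by the MRE11A, RAD50 and NBN nuclease complex with RBBP8, and extended by EXO1 and DNA2. All 6 of these genes were below the control in both siRNA libraries of T24, against 30.1% of all genes. With siRNA-2, RAD50 and NBN lay below it only within counting error. In UM-UC-3 3 of the 6 were below the control in both, against 30.4% of all genes. The median log2 fold change of the 6 over both lines was -0.38. EXO1, the exonuclease that extends resection, had 13.4 and 21.8 CPM with siRNA-1 and siRNA-2 in T24, against 51.7 CPM in the control. In UM-UC-3 it had 31.6 and 36.0 CPM with the siRNAs, against 45.8 CPM in the control. EXO1 had a log2 fold change of -0.99 ± 0.33 over both lines (adjusted p 0.424). RBBP8 had 26.9 and 70.3 CPM with the siRNAs in T24, against 81.4 CPM in the control, and 33.2 and 27.1 CPM in UM-UC-3, against 39.7 CPM. Its T24 libraries lay far apart, with siRNA-2 close to the control. DNA2, a nuclease and helicase, had a log2 fold change of -0.41 and was below the control in all 4 siRNA libraries.

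In the nuclease complex, MRE11A and RAD50 had both siRNA libraries below the control in T24 and above it in UM-UC-3, and no gene of the complex passed the test of the difference between lines (limma, adjusted p at least 0.948). MRE11A, its nuclease, had 37.4 and 27.9 CPM with the siRNAs in T24, against 54.6 CPM in the control, and 83.4 and 88.2 CPM in UM-UC-3, against 82.1 CPM. With siRNA-1 in UM-UC-3 MRE11A stood at 102% of the control, with a counting interval from 95.7% up to 108% that includes it. RAD50, its ATPase, had 4.89 and 11.9 CPM with siRNA-1 and siRNA-2 in T24, against 11.9 CPM in the control. In UM-UC-3 RAD50 had 140.2 and 180.3 CPM with the siRNAs, against 102 CPM in the control. RAD50 with siRNA-2 in T24 stood at 99.3% of the control, with a counting interval of 84.3% to 117% that includes it, so the low value in T24 came from the siRNA-1 library. NBN, which recruits ATM to the complex, had a log2 fold change of -0.16 in T24 and -0.10 in UM-UC-3. With siRNA-2 in T24 NBN stood at 99.9% of the control, with a counting interval of 94.4% to 106% that includes it.

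BRCA1 and its ubiquitin ligase partner BARD1 stood well below the control in T24. In UM-UC-3 BRCA1 was near the control and BARD1 below it. BRCA1 had 42.2 and 23.4 CPM with the siRNAs in T24, against 77.9 CPM in the control, and 74.9 and 67.4 CPM in UM-UC-3, against 75.0 CPM. For BRCA1 the siRNA-1 library of UM-UC-3 thus held 99.9% of the control, with a counting interval of 93.8% to 106%, and the siRNA-2 library 89.9%, with an interval of 84.3% to 95.8%. BARD1 had 10.2 and 16.0 CPM with the siRNAs in T24, against 35.7 CPM in the control, and 16.1 and 15.7 CPM in UM-UC-3, against 20.5 CPM. These UM-UC-3 libraries held 78.4% and 76.6% of the control, and neither counting interval reached it. BRCA2, which acts with PALB2 on the resected strands, had 23.0 and 14.3 CPM with the siRNAs in T24, against 40.95 CPM in the control, and 27.1 and 24.03 CPM in UM-UC-3, against 29.4 CPM. The log2 fold changes over both lines were -0.68 ± 0.34 for BRCA1, -0.88 ± 0.32 for BARD1 and -0.66 ± 0.31 for BRCA2. PALB2, the bridge between BRCA1 and BRCA2, lay on no one side of the control, with a log2 fold change of 0.15 ± 0.28.

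The paralogs RAD51B, RAD51C, RAD51D, XRCC2 and XRCC3, which assist strand exchange, differed among themselves. XRCC2 had 31.1 and 24.6 CPM with the siRNAs in T24, against 74.8 CPM in the control, and 35.7 and 29.7 CPM in UM-UC-3, against 45.0 CPM. XRCC3 had 20.2 and 21.3 CPM with the siRNAs in T24, against 29.3 CPM in the control, and 20.1 and 18.5 CPM in UM-UC-3, against 30.1 CPM. Both were below the control in all 4 siRNA libraries, with log2 fold changes of -0.93 ± 0.29 for XRCC2 and -0.55 ± 0.23 for XRCC3. RAD51B and RAD51D were above the control with siRNA-1 and below it with siRNA-2 in T24, and above it with both siRNAs in UM-UC-3. RAD51C was above the control with siRNA-1 in T24 and below it in the other 3 siRNA libraries. Of the exon bases of XRCC3 in GENCODE v29, 76.7% lie opposite exons of KLC1, so without knowledge of the strand used in counting the reads of this pair cannot be told apart.

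Among the motors and partners of strand exchange, RAD54L and RAD51AP1 had the lowest fold changes over both lines of the 41 genes. RAD54L, the translocase that drives strand exchange, had 4.99 and 5.23 CPM with the siRNAs in T24, against 17.8 CPM in the control. In UM-UC-3 it had 29.9 and 22.6 CPM with the siRNAs, against 49.3 CPM in the control. The siRNA libraries of T24 held 28.0% and 29.3% of their control, with counting intervals from 22.9% up to 34.0% and from 24.1% up to 35.6%. The siRNA libraries of UM-UC-3 held 60.7% and 45.9% of theirs, with intervals from 55.5% up to 66.4% and from 41.6% up to 50.5%. RAD54L had a log2 fold change of -1.26 ± 0.28 over both lines (adjusted p 0.424), and DESeq2 gave -1.43 with an adjusted p of 0.0126. RAD51AP1, which promotes strand pairing, had 16.7 and 27.5 CPM with the siRNAs in T24, against 55.8 CPM in the control, and 66.3 and 63.3 CPM in UM-UC-3, against 103 CPM. Its log2 fold change was -0.999 ± 0.284. RAD54B, a relative of RAD54L, had 3.33 and 2.54 CPM with the siRNAs in T24, against 5.61 CPM in the control, and 6.63 and 5.79 CPM in UM-UC-3, against 8.12 CPM. In GENCODE v29, 59.1% of its exon bases are shared with FSBP on the same strand, so its reads are uncertain. For RAD54L 25.1% of the exon bases lie opposite LRRC41.

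Of the 6 genes that separate the joined molecules, 5 were below the control in all 4 siRNA libraries, against 12.2% of all genes, MUS81 being the exception. None of the 6 differences between lines had an unadjusted p under 0.05 (limma, 0.0935 to 0.529). BLM, the helicase that dissolves double Holliday junctions together with RMI1 and RMI2, had 15.9 and 13.9 CPM with the siRNAs in T24, against 39.3 CPM in the control. In UM-UC-3 BLM had 31.5 and 22.7 CPM with the siRNAs, against 34.3 CPM in the control, and its log2 fold change over both lines was -0.85 ± 0.30. RMI1 and RMI2 were below the control in all 4 siRNA libraries, with log2 fold changes of -0.50 and -0.31. GEN1, a nuclease that cuts junctions, had 26.6 and 21.3 CPM with the siRNAs in T24, against 46.3 CPM in the control, and 44.3 and 37.2 CPM in UM-UC-3, against 49.6 CPM. EME1 had 9.19 and 5.72 CPM with the siRNAs in T24, against 13.3 CPM in the control, and 9.02 and 8.21 CPM in UM-UC-3, against 11.3 CPM. MUS81, the nuclease that works with EME1, had 33.0 and 37.2 CPM with the siRNAs in T24, against 45.6 CPM in the control, and 39.4 and 46.0 CPM in UM-UC-3, against 32.9 CPM. Its values thus lay below the control in T24 and above it in UM-UC-3, unlike those of EME1, which lay below it in all 4.

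The Fanconi core complex is the ubiquitin ligase of the pathway, with FANCL as its catalytic subunit and UBE2T as the conjugating enzyme. Of its 9 genes, 6 were below the control in all 4 siRNA libraries, against 12.2% of all genes. In all 4 libraries 1 of the 9 was above it, against 18.8% of all genes. The median log2 fold change of the 9 genes was -0.47 in T24 and -0.54 in UM-UC-3. FANCA had 45.6 and 51.0 CPM with the siRNAs in T24, against 84.4 CPM in the control, and 33.8 and 32.6 CPM in UM-UC-3, against 56.8 CPM. FANCG, which binds FANCA, had 28.5 and 23.0 CPM with the siRNAs in T24, against 47.1 CPM in the control, and 61.0 and 53.3 CPM in UM-UC-3, against 93.0 CPM. UBE2T had 23.8 and 27.4 CPM with the siRNAs in T24, against 45.2 CPM in the control, and 24.9 and 21.96 CPM in UM-UC-3, against 42.1 CPM. These 3 genes were lower by similar factors in both lines, with log2 fold changes in T24 and UM-UC-3 of -0.79 and -0.76 for FANCA, -0.85 and -0.70 for FANCG and -0.80 and -0.82 for UBE2T. For FANCA 23.6% of the exon bases lie opposite ZNF276.

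FANCE, FANCC and FANCF form one module of the core complex, and their values did not go together. FANCE had 11.3 and 13.7 CPM with the siRNAs in T24, against 15.6 CPM in the control, and 16.6 and 14.4 CPM in UM-UC-3, against 30.05 CPM. FANCC had a log2 fold change of 0.02 ± 0.26 over both lines. FANCF, an adaptor of the complex, had 18.7 and 20.002 CPM with the siRNAs in T24, against 8.82 CPM in the control, and 12.6 and 13.2 CPM in UM-UC-3, against 9.68 CPM. Its siRNA libraries held 212% and 227% of the control in T24, with counting intervals from 180% up to 250% and from 193% up to 268%. In UM-UC-3 they held 130% and 137% of the control, with intervals from 110% up to 154% and from 116% up to 161%. The log2 fold change of FANCF over both lines was 0.71 ± 0.26 (p 0.0241, adjusted p 0.443). FANCB had 9.41 and 11.5 CPM with the siRNAs in T24, against 14.8 CPM in the control, and 11.4 and 8.03 CPM in UM-UC-3, against 14.4 CPM. FANCL was below the control in all 4 siRNA libraries with a log2 fold change of -0.37, and FANCM, a translocase that anchors the complex, had -0.34 ± 0.36, with siRNA-1 in T24 slightly above the control.

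FANCD2 and FANCI, the pair that receives ubiquitin, and BRIP1, a helicase that binds BRCA1, were lower in all 4 siRNA libraries. FANCD2 had 21.9 and 22.8 CPM with the siRNAs in T24, against 48.5 CPM in the control, and 35.7 and 34.1 CPM in UM-UC-3, against 52.2 CPM. FANCI had 40.2 and 54.4 CPM with the siRNAs in T24, against 117 CPM in the control, and 79.6 and 74.8 CPM in UM-UC-3, against 119 CPM. BRIP1 had 22.3 and 22.5 CPM with the siRNAs in T24, against 54.9 CPM in the control, and 37.9 and 35.2 CPM in UM-UC-3, against 42.3 CPM. Their log2 fold changes over both lines were -0.83 ± 0.24, -0.96 ± 0.26 and -0.73 ± 0.29, in that order. The siRNA libraries of each line lay close together for FANCD2 and BRIP1, and well below the control in T24.

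The checkpoint genes did not share one direction. TOPBP1, which activates ATR, had 73.5 and 56.3 CPM with the siRNAs in T24, against 139 CPM in the control, and 163 and 156 CPM in UM-UC-3, against 185 CPM. CHEK2, the kinase downstream of ATM, had 23.7 and 13.3 CPM with the siRNAs in T24, against 31.3 CPM in the control, and 39.1 and 33.9 CPM in UM-UC-3, against 44.1 CPM. ATM had 95.3 and 127 CPM with the siRNAs in T24, against 129 CPM in the control, and 172 and 178 CPM in UM-UC-3, against 134 CPM. ATR had 52.9 and 82.7 CPM with the siRNAs in T24, against 36.8 CPM in the control. In UM-UC-3 ATR had 92.4 CPM with siRNA-1 and 117 CPM with siRNA-2, against 94.4 CPM in the control, so these libraries lay on either side of it. Its log2 fold change was 0.83 in T24, 0.14 in UM-UC-3 and 0.48 ± 0.28 over both lines (adjusted p 0.593). CHEK1, the kinase downstream of ATR, was above the control with siRNA-1 and below it with siRNA-2 in T24.

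**Figure D2:**
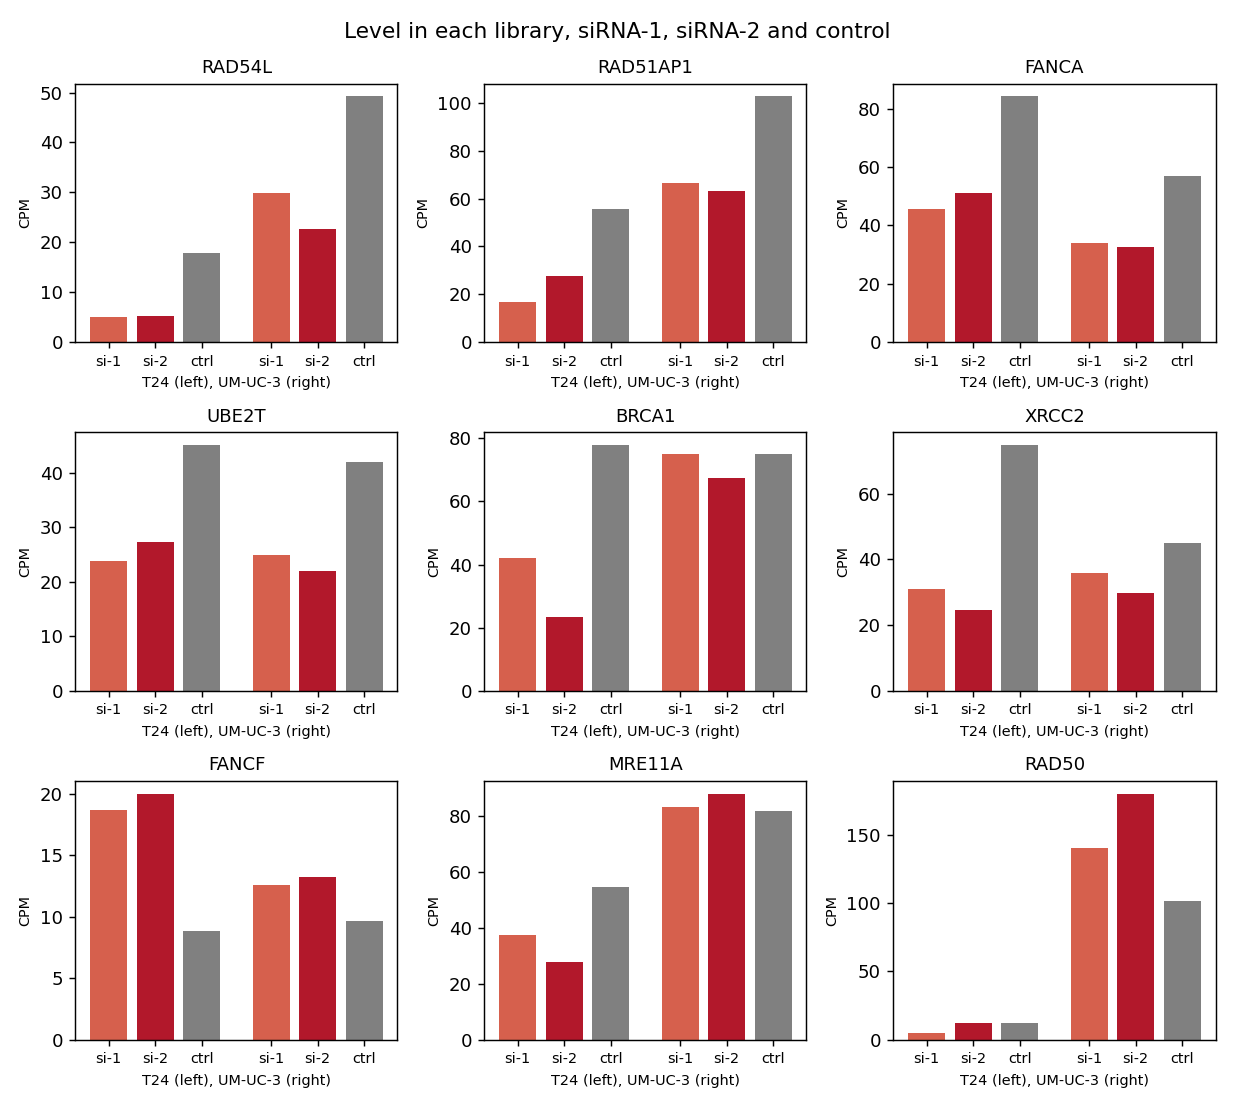
CPM of 9 genes (vertical axes from 0, scaled per gene) with siRNA-1, siRNA-2 and in the control, T24 at the left and UM-UC-3 at the right of each panel; each bar is 1 library. The siRNA bars of RAD54L in T24, at 4.99 and 5.23 CPM, stand below the control at 17.8 CPM, those of FANCF stand above the control in both lines, and RAD50 is far lower in T24 than in UM-UC-3.

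Fold changes of most of the 41 genes were lower in T24 than in UM-UC-3. The log2 fold change in T24 was below that in UM-UC-3 for 30 of the 41 genes, against 50.9% of all genes, and the medians of the 41 genes were -0.74 in T24 and -0.28 in UM-UC-3, against 0.07 and 0.04 for all genes. Both siRNA libraries were at least 1.5-fold below the control for 18 genes in T24, against 10.9% of all genes, and for 6 genes in UM-UC-3, against 3.1% of all genes. In all 4 libraries this held for the 5 genes whose promoters are printed above, against 1.06% of all genes. Within T24, limma called none of the 41 genes and 0% of all genes, and at an unadjusted p under 0.05 16 were lower, against 6.91% of all genes, and FANCF was higher, against 5.22%. Within UM-UC-3 none of the 41 and 0% of all genes were called, and FANCA, FANCE, RAD54L and UBE2T were lower at an unadjusted p under 0.05, against 0.776% of all genes, and none was higher, against 2.27%. DESeq2 called 3 genes in UM-UC-3 and none of the 41. The difference of the siRNA effect, T24 minus UM-UC-3, was called by limma for none of the 41 genes and 0% of all genes, and its smallest unadjusted p among the 41 was 0.0517. DESeq2 called the difference for 37 genes and none of the 41, so a difference between the lines was not shown for any single one of them. MRE11A, RAD50, MUS81 and ATM were below the control with both siRNAs in T24 and above it with both in UM-UC-3. These 4 genes are 9.76% of the 41, which is near the 8.97% of all genes with that pattern. FANCE had a log2 fold change of -0.31 in T24 and -0.91 in UM-UC-3, and so lay farther below 0 in UM-UC-3.

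With the siRNA number as a replicate block, limma called 807 genes in T24, 6.08% of those tested, and 10 of the 41 genes, all lower (EXO1, BRCA1, BARD1, XRCC2, RAD51AP1, RAD54L, BLM, FANCI, BRIP1 and TOPBP1). DESeq2 without the block called 322 genes in T24, 2.43% of those tested, and 5 members, EXO1, XRCC2, RAD54L, BLM and BRIP1. Without the siRNA-2 library of T24, limma called 566 genes in T24, 4.25% of those tested, and 5 of the 41, and without its siRNA-1 library 76 genes, 0.574%, and none of the 41. Each of these sets 1 T24 library against 1, with the spread taken from the UM-UC-3 siRNA libraries alone.

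**Figure D3:**
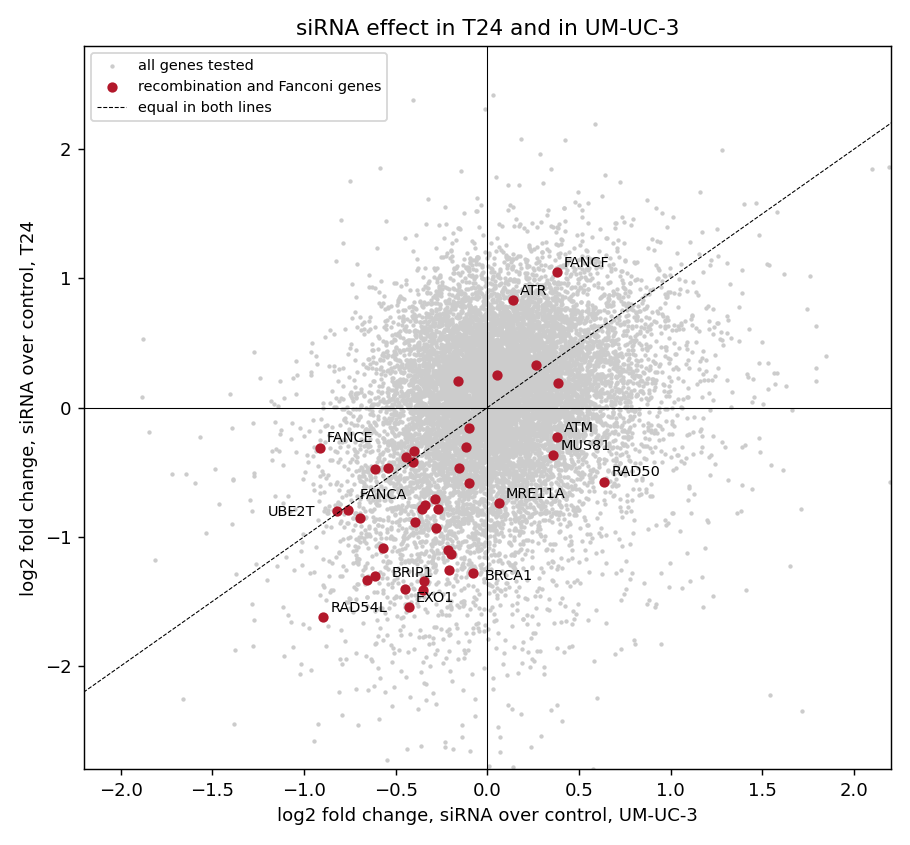
Log2 fold change of siRNA over control in T24 (vertical axis) and in UM-UC-3 (horizontal axis); grey points are all genes tested, of which 23 lie outside the axes, red points are the 41 recombination, Fanconi and checkpoint genes, and the dashed line marks equal values. Most red points lie at the lower left, below the dashed line, FANCF, ATR, PALB2, RAD51B and RAD51D lie above 0 in both lines, and RAD50, MUS81, ATM and MRE11A lie below 0 in T24 and above it in UM-UC-3.

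As an average over both lines, the 2 siRNAs could not be separated for any of the 41 genes. Between siRNA-2 and siRNA-1 limma called none of them and 0.279% of all genes, 37 in number, and the smallest unadjusted p among the 41 was 0.0598. DESeq2 called 258 genes and none of the 41, edgeR called 0 genes, and the median log2 difference was -0.17 over the 41 genes and -0.04 over all genes. RAD50 had the largest difference, 0.74 ± 0.36 (adjusted p 0.429), followed by RAD51B at -0.66 and CHEK1 at -0.63. A difference confined to a single line was not tested, because each line holds a single library of each siRNA. In T24 the siRNA-1 library had CHEK1 at 124% of its control, and the siRNA-2 library had it at 52.6%. RBBP8 differed the other way there, at 33.0% and 86.4%, while BRIP1 was at 40.5% and 41.1%. For CHEK1 and RBBP8 the counting intervals of these T24 libraries did not overlap. The same held for others of the 41 genes, among them BRCA1, RAD51C, FANCM and ATR, and the share of all genes is not given.

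The level in T24 was lower than in UM-UC-3 for 14 of the 41 genes and higher for none (limma, adjusted p under 0.05), against 18.6% of all genes lower and 21.0% higher, or 39.6% in either direction. At an unadjusted p under 0.05 FANCA was higher in T24, against 26.0% of all genes. Without the UM-UC-3 siRNA-1 library 8 of the 41 were called, against 26.8% of all genes. Without the UM-UC-3 siRNA-2 library 9 of the 41 were called, against 28.5% of all genes. In both settings all of those called among the 41 were lower in T24. Without the T24 siRNA-1 library 13 were lower and 1, RBBP8, was higher, against 40.7% of all genes in either direction. The 14 were MRE11A, RAD50, NBN, DNA2, RAD51AP1, RAD54L, RAD54B, RMI1, RMI2, FANCG, ATR, CHEK1, CHEK2 and TOPBP1. The largest difference was that of RAD50, at -3.80 ± 0.37 on the log2 scale (adjusted p 8.3e-05), followed by RAD54L at -1.90 ± 0.26 and RAD51AP1 at -1.32 ± 0.27. Of the exon bases of RAD50 in GENCODE v29, 79.7% lie in exons of AC116366.3 on the same strand, a gene listed in neither line. All 22793 identifiers in the T24 files are in GENCODE v29, while 160 of the 23987 identifiers in the UM-UC-3 files are not. The files of the lines thus do not rest on the same set of gene models, and level differences between lines cannot be told apart from a difference in counting. Comparisons of siRNA with control lie within a line. A difference of the siRNA effect between the lines, such as that of RAD50, still sets values from different sets of gene models side by side.

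Replication and mitosis genes were counted beside the 41 genes. Of 40 replication genes, 38 were below the control in all 4 siRNA libraries, against 12.2% of all genes, with a median log2 fold change over both lines of -0.79, and CDC45, a subunit of the replicative helicase, had 14.8 and 23.0 CPM with the siRNAs in T24, against 58.1 CPM in the control. Of 33 mitosis genes, 32 were below the control in all 4, with a median of -0.95, and CDK1, the kinase that starts mitosis, had 63.9 and 41.1 CPM with the siRNAs in T24, against 186 CPM in the control. Their medians were -0.98 and -1.47 in T24 and -0.64 and -0.40 in UM-UC-3. Their part in the lower values of the recombination genes was not tested.

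Of 46 further genes of recombination and crosslink repair outside the 41, 43 were tested. All 4 siRNA libraries were below the control for 12 of them (27.9%, against 12.2% of all genes) and above it for 4 (9.3%, against 18.8%), and the median log2 fold change was -0.08. At an unadjusted p under 0.05, 7 were lower (16.3%, against 4.76% of all genes). POLQ, the polymerase of an alternative end joining route, had a log2 fold change of -0.95 ± 0.25, H2AFX, the histone variant phosphorylated at breaks, -1.002 ± 0.269, MCM8, a helicase subunit in recombination, -0.85 ± 0.25 and FAM175A, a subunit of a BRCA1 complex, 0.78 ± 0.25, all with an adjusted p of 0.424. Of 12 end joining genes tested, which rejoin breaks without a template, 2 were below the control in all 4 libraries and 2 above it. Each is 16.7% of the 12, against 12.2% of all genes below and 18.8% above. The median log2 fold change of the 12 was 0.03. The log2 fold changes of the 4 end joining genes with the smallest p were 0.42 for POLM and 0.52 for POLL, both polymerases, 0.31 for XRCC5, which binds broken ends, and -0.26 for PRKDC, the kinase of the route. limma and edgeR called no gene of the replication, mitosis, further recombination and end joining lists over both lines. DESeq2 called 7 replication genes, 5 mitosis genes and POLQ.

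The promoters of the 41 genes held E2F motifs more often than the promoters of other genes. RefSeq gave a window from 250 bases before the start to 50 bases after it for 36 of the 41 genes, 49 windows in all. An E2F motif, TTCCCGC or TTGGCGC on either strand, was in 42.9% of these windows, against 13.5% of the 14088 windows of genes tested and 9.23% of all 35116 windows. A CCAAT box was in 44.9% of the windows of the 41 genes, against 34.8% of those of genes tested, and a CHR motif in 8.16%, against 10.3%. A pair of heat shock units (GAANNTTC or TTCNNGAA) was in 6.12% of the windows, against 10.2%, and such a pair extended by 1 more unit at the same spacing was in none of the 49, against 0.334%. The pair was in a window of FANCC at position -50, of FANCF at -244 and of FANCG at -177. No match says only that these letters are not in this window.

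The 18 genes with an E2F motif had a median log2 fold change of -0.71 over both lines, and 16 of them were below the control in all 4 siRNA libraries. The 18 genes without it had a median of -0.34, and 7 of them were below the control in all 4. This split was made after the values had been seen and is a description. EXO1, UBE2T and BRCA2 were lower with no E2F motif in the window, and FANCC and RAD51D had the motif and were not.

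**Figure D4:**
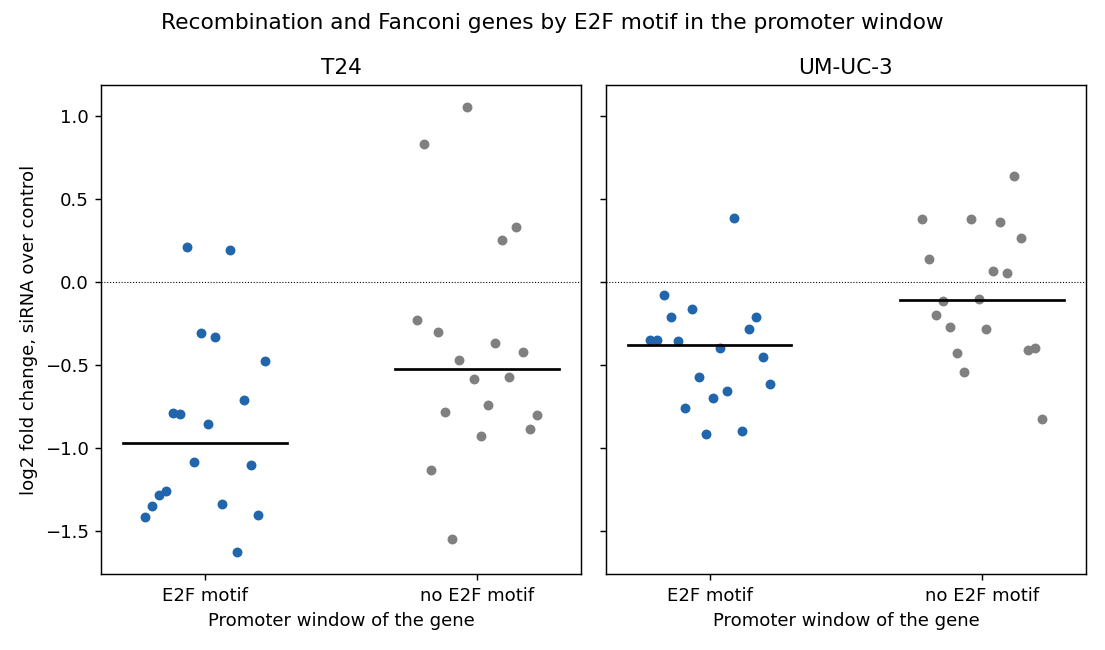
Log2 fold change of siRNA over control in T24 (left panel) and UM-UC-3 (right panel) for the 18 genes with an E2F motif in the promoter window and the 18 genes without it; each point is 1 gene, spread sideways for clarity, and the line is the median. In T24 the medians are -0.97 with the motif and -0.52 without it, in UM-UC-3 they are -0.38 and -0.11, and the values of the groups overlap in both lines.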

How the data were processed

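RNA of 6 libraries was sequenced. The submitters' processing notes name bcl2fastq 2.19.1, HISAT2 2.1.0, HTSeq 0.6.1, hg19 and GRCh37 but not what each was used for. The deposited values are CPM per gene, per the file headers. All values (100%) were whole multiples of 1 read within 0.01, with 0.5 read standing for 0, so whole reads were recovered. Genes were joined by Ensembl identifier. Values missing from one file of a line were set to 0, which touched none of the 41 genes.

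Log2(CPM + 1) was tested with limma 3.58.1 (limma-trend, R 4.3.3) in genes with a mean of at least 1 CPM, a filter that all 41 genes passed, at a Benjamini-Hochberg adjusted p of 0.05. This scale understates fold changes of low genes. The fit over both lines had the cell line as a covariate. One fit with a mean for each line and treatment gave the effect in each line and its difference, and took the spread of the single controls from the siRNA libraries. edgeR 4.0.16 and DESeq2 1.42.0 ran on the recovered reads. Counting intervals are exact binomial intervals at 95% and cover counting error only. Exon overlaps were computed from GENCODE v29 by identifier. The fits were tested on simulated data.

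The replicate number is the number of the siRNA. The deviation of siRNA-2 from siRNA-1 correlated between the lines with r = 0.417 across 13265 genes, which are not independent. Over the 41 genes alone r was 0.187. The fit with this number as a replicate block was an alternative, and its extra term leaves less from which to estimate the spread.

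Values in every library are given for genes with all 4 siRNA libraries on one side and an absolute log2 fold change of at least 0.5, genes on opposite sides in the 2 lines, BRCA1 and BRCA2, the gene with the largest difference between siRNAs and the 3 with the largest difference between lines. ATR was added after its values had been seen. The members, the lists and the tests were chosen with earlier results of these data known.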

Additional observations from a re-analysis of the deposited data

Results flagged for a closer look

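For 4 genes both siRNA libraries were below the control in T24 and both were above it in UM-UC-3, which is 9.76% of the 41 and near the 8.97% of all genes with this pattern. The log2 fold change in T24 minus that in UM-UC-3 was -0.80 ± 0.46 for MRE11A, -1.21 ± 0.72 for RAD50, -0.73 ± 0.45 for MUS81 and -0.61 ± 0.44 for ATM, each with an adjusted p of 0.948 in limma, so none passed the test of the difference. Of these 4 genes, MUS81 alone had counting intervals that left out the control in all 4 siRNA libraries. For RAD50, 79.7% of the exon bases are shared with another gene on the same strand. The files of the lines do not rest on the same set of gene models, and what this does to the difference was not tested. No group had enough libraries for a check of single outlying samples.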

How the results depend on the processing

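Each group holds 1 or 2 libraries, and depth limits the genes with the fewest reads in T24, RMI2 and RAD54B, most. Of 533 values of the 41 genes over both lines under other settings, 512 kept their direction, and 34 genes had no reversed value. The cause of the changes below was not tested. DESeq2 called 87 genes and 1 member over both lines, 322 and 5 in T24, 3 genes in UM-UC-3, 37 for the difference between lines and 258 between siRNAs. Without a filter 2 genes were called in T24 and 0 between siRNAs. With TMM scaling and with edgeR 0 genes were called between siRNAs, and the median difference between siRNAs was -0.11 with TMM and -0.10 with edgeR and DESeq2. With the siRNA number as a replicate block, 807 genes and 10 members were called in T24, 11 genes in UM-UC-3 and 112 for the difference, and the block changed no other call count by over 1.5 times.

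Leaving out 1 library at a time, 0 to 566 genes and 0 to 5 members were called in T24, 0 to 485 genes between siRNAs, and 8 to 14 members between lines. In T24 76 genes were called without siRNA-1 and 566 without siRNA-2. Between lines, 26.8% to 40.7% of all genes were called in these settings. The median difference between siRNAs ranged from -0.23 to 0.014, the last without UM-UC-3 siRNA-1. Leaving out 1 siRNA library, 1 to 3 of the 41 genes were higher in every remaining one. The share of all genes is not given, so this count cannot be called high or low.

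The log2 fold change over both lines turned sign for 7 genes. With TMM, edgeR and DESeq2 it was -0.041, -0.020 and -0.0096 for RAD50 and -0.055, -0.051 and -0.034 for FANCC, and with TMM and edgeR -0.0044 and -0.0030 for ATM. Leaving out 1 library, which for a control leaves the effect in the other line alone, gave -0.57 to 0.64 for RAD50, -0.16 to 0.21 for FANCC, -0.23 to 0.38 for ATM, -0.74 to 0.063 for MRE11A, -0.0041 to 0.28 for PALB2, -0.37 to 0.36 for MUS81 and -0.46 to 0.063 for CHEK1. From 100 bases before the start, 2.04% of windows held a CHR motif (4.34% of those of genes tested), and 2.04% the pair of heat shock units (4.64%).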
